A study of Saccharomyces cerevisiae with 6 samples.

Results

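The comparison set budding yeast without Hst3 and Hst4 (hst3 hst4 deletion) against budding yeast without Rtt109 (rtt109 deletion), and it used 4 of the 6 libraries of poly(A) RNA in the series, 2 for each deletion. The members were chosen by their titles, which name the deletion, and not by any measured value. The 2 wild-type libraries are given beside them. All 5211 genes with enough coverage for a test were compared. The deposited values are strand-specific coverage scaled to fission yeast RNA mixed into each sample, and a gene's value here is its mean sense coverage per bin of 50 bases inside the coding region, which is a level per length.

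Rtt109 is the acetyltransferase that places the acetyl mark on lysine 56 of histone H3 (H3K56), working with the chaperones Asf1 and Vps75 on histones that are then built into chromatin behind the replication fork. Hst3 and Hst4 are NAD-dependent deacetylases of the Sir2 family that take the mark off again after replication. Cells without Rtt109 lack the mark, and cells without Hst3 and Hst4 keep it on most nucleosomes, so the comparison asks how transcript levels differ between too much and none of it.

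The hst3 hst4 strain is labelled MATalpha, with Δhst3::HygMX, Δhst4::NatMX, the restored ade2-1::ADE2 and the tagged RNA polymerase II subunit Rpb3-3HA::TRP. The rtt109 strain is labelled MATa, with Δrtt109::Kan, ade2-1, GAL, psi+ and RAD5+, and no tagged Rpb3. Wild type is labelled MATa with the restored ADE2 and the tagged Rpb3. The 3 strains share a BAR1 deletion, the thymidine kinase construct URA3::GDP-TK(7x), the nucleoside transporter gene at AUR1c, and the alleles can1-100, ura3-1, trp1-1, leu2-3 112 and his3-11 15. Cells grew exponentially in rich medium (YPD). By label the strains also differ in ADE2, the Rpb3 tag, RAD5, GAL, psi+ and mating type. Effects of those differences and of the named deletions cannot be told apart in this comparison. The labels do not say that the 2 libraries of a group came from separate cultures, so the spread between libraries may be technical. The per-gene p-values below measure that spread, weighted towards a value shared by all genes (37.7 prior against 3 residual degrees of freedom).

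The deleted genes followed the labels. RTT109 (YLL002W, chromosome 12, 146301 to 147650 on the build of the deposited table, which is not named) had 0.996 and 0.856 in the hst3 hst4 libraries, 0.00123 and 0.00342 in the rtt109 libraries and 0.763 and 0.830 in wild type. HST3 (YOR025W, chromosome 15, 378251 to 379650) had 0.0131 and 0.00999 in the hst3 hst4 libraries, 0.718 and 1.21 in the rtt109 libraries and 1.32 and 1.36 in wild type. HST4 (YDR191W, chromosome 4, 842351 to 843500) had 0.0617 and 0.00648 in the hst3 hst4 libraries, 0.473 and 0.487 in the rtt109 libraries and 0.470 and 0.672 in wild type. These 3 genes are among the calls counted below because they were deleted. BAR1 was listed at 0 in all 6 libraries. Of the genes named in the strains' other labelled alleles, ADE2 (log2 fold change 0.18), TRP1 (0.13), RPB3 (0.64) and RAD5 (0.44), whose labels differ between the strains, and URA3 (0.01) and HIS3 (-0.55), whose labels do not, did not pass the test.

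The mating-type label of the hst3 hst4 strain was not matched by its transcripts. STE2, the receptor for alpha factor that only a cells normally make, had 22.6 and 23.4 in the hst3 hst4 libraries, 9.84 and 9.83 in the rtt109 libraries and 15.5 and 30.2 in wild type. MF(ALPHA)1, the main alpha factor gene, had 0.327 and 0.345 in the hst3 hst4 libraries, 0.0582 and 0.0929 in the rtt109 libraries and 0.0375 and 0.0271 in wild type. STE3, the receptor that alpha cells make, had 0.0209 and 0.0186 in the hst3 hst4 libraries, 0.00385 and 0.00329 in the rtt109 libraries and 0.00298 and 0.0163 in wild type. All 6 libraries therefore carried STE2 at high levels, and MF(ALPHA)1 and STE3, both below the filter on low values, were far lower than STE2 everywhere. The a-factor genes were also high, with MFA1 between 6.64 and 20.5 and MFA2 between 23.2 and 101. Not every marker was apart in this way. The a-specific ASG7 lay between 0.150 and 0.645 and the alpha-specific SAG1 between 0.397 and 0.610 over the 6 libraries.

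One library stood apart. In replicate 2 of the rtt109 deletion the 366 tested genes of chromosome 2 had a median 0.46 (log2) above the mean of the other libraries, relative to all genes of that library, against medians between -0.08 and 0.10 on its other chromosomes. Of the chromosome 2 genes, 92.1% had a difference from the other libraries above the median difference of all genes in that library. All 8 windows of 100 kb with at least 20 genes had medians between 0.39 and 0.56. The other 5 libraries had chromosome 2 medians between -0.12 and -0.08. The named genes of chromosome 2 are given below with and without this library. The spike-in scaled total coverage was 763469 and 654763 in the hst3 hst4 libraries, 474278 and 611350 in the rtt109 libraries and 678558 and 784679 in wild type. Low values were multiples of a step between 0.00397 and 0.0124, and since read numbers are unknown, no counting interval can be given. Coverage was higher in the last than in the first part of genes in every library, with median ratios between 1.56 and 2.04.

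**Figure D1:**
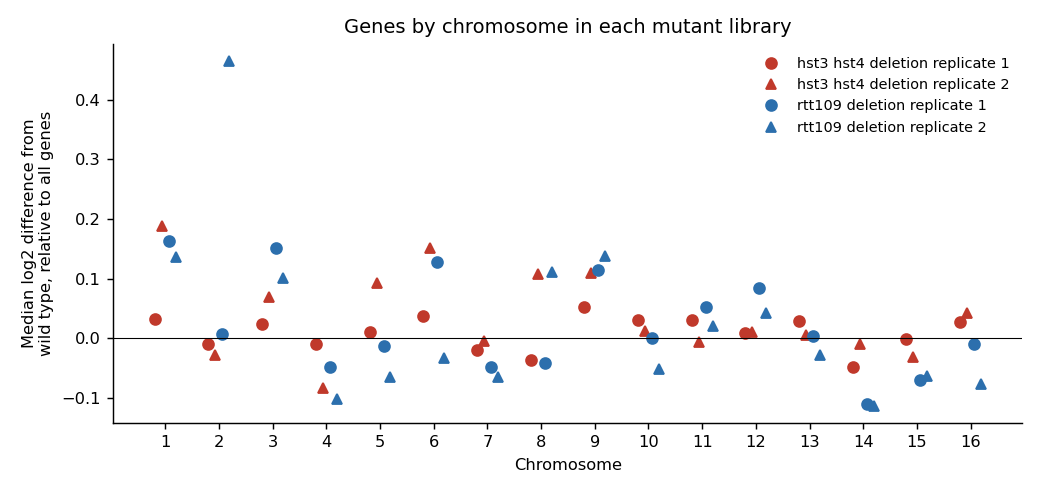
Median log2 difference from the mean of the wild-type libraries for the genes of each chromosome (x axis), relative to all genes of the library (y axis), in each of the 4 mutant libraries. Chromosome 2 in replicate 2 of the rtt109 deletion sits at 0.46, while replicate 1 of the rtt109 deletion sits at 0.01 there and all other points lie within 0.2 of 0.

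Most transcripts were somewhat higher in the hst3 hst4 deletion. The median gene had a log2 fold change of 0.41, hst3 hst4 deletion over rtt109 deletion, and 85.5% of genes lay above 0. The 4 pairings of one library of each deletion gave medians between 0.19 and 0.66. The median gene value was 1.91 and 1.74 in the hst3 hst4 libraries, 1.27 and 1.55 in the rtt109 libraries and 1.55 and 1.92 in wild type, so the deletions did not overlap in this measure, but the exact permutation test over the 4 libraries (two-sided) gave p = 0.33, the smallest that 2 against 2 allows. The shift rests on the spike-in scaling, since it was 0.04 with the columns that the authors normalized to 1. Fold changes below include this shift, except where they are said to be relative to the median gene or to all genes.

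By limma across all genes, 72 of 5211 passed an adjusted p of 0.05 (Benjamini-Hochberg), which is 1.38% of those tested. Of these, 41 (0.787%) were higher and 31 (0.595%) were lower in the hst3 hst4 deletion. Both hst3 hst4 libraries lay above both rtt109 libraries in 2665 genes (51.1%), below both in 230 (4.41%), and the groups overlapped in 2316. Called rises had log2 fold changes from 1.33 for SPR6 to 4.01 for RTT109, and called falls from -1.36 for AMD2 to -3.82 for HST3. With each library centred on its own median, 14 genes passed, 2 higher and 12 lower, of which 12 were among the 72: RTT109 and SSB1 higher, and HST3, HST4, BAG7, RTC2, GRE1, LEU1, VID24, LEU2, MEP2 and AMD2 lower. Without replicate 1 of the rtt109 deletion 2 genes passed (RTT109 and HST3) and without replicate 2 none did by limma, although 674 genes had an unadjusted p under 0.05 in that fit.

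**Figure D2:**
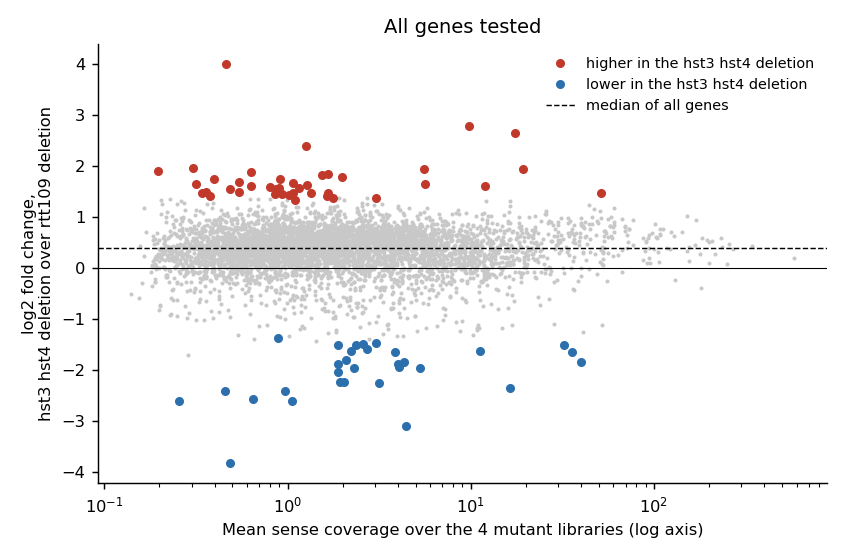
Each point is 1 of the 5211 tested genes, with its mean sense coverage over the 4 mutant libraries (x axis, log scale) and its log2 fold change, hst3 hst4 deletion over rtt109 deletion (y axis). The 41 called rises are red, the 31 called falls are blue, and the dashed line is the median of all genes at 0.41.

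Genes of the H3K56 acetylation pathway outside the deleted ones did not pass the test. Of 10 tested members, RTT109 was higher and HST3 and HST4 were lower. The chaperone gene ASF1 had 2.41 and 2.07 in the hst3 hst4 libraries, 0.879 and 1.19 in the rtt109 libraries and 1.46 and 2.07 in wild type. VPS75, the other Rtt109 partner, had 4.05 and 4.42 in the hst3 hst4 libraries, 1.84 and 1.99 in the rtt109 libraries and 2.501 and 4.32 in wild type. For both genes the hst3 hst4 libraries lay above the rtt109 libraries, as they did in 51.1% of all tested genes. The log2 fold changes were 1.08 and 1.12, with limma adjusted p of 0.157 and 0.140. RTT101, MMS1 and MMS22, which encode the ubiquitin ligase that acts on acetylated histone H3 and on stalled forks, had log2 fold changes of 0.42, 0.24 and 0.22, against 0.41 for the median gene.

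None of the 8 core histone genes passed, although their median was 0.50. With all libraries, the H2B gene HTB1 (YDR224C) had the largest difference. It had 78.2 and 47.3 in the hst3 hst4 libraries, 27.2 and 24.1 in the rtt109 libraries and 51.7 and 112 in wild type (log2 fold change 1.25 ± 0.39, SE; limma adjusted p = 0.111). The H4 gene HHF2 had 141 and 65.2 in the hst3 hst4 libraries against 65.0 and 87.0 in the rtt109 libraries, so the groups overlapped. HTB2, HHT1, HHF1 and HTA2 lie on chromosome 2 and had log2 fold changes of 0.93, 0.63, 0.37 and 0.31. Without replicate 2 of the rtt109 deletion they had 1.65, 0.91, 0.80 and 0.85, against 1.16 for HTB1. The order of the histone genes and their median thus depend on that library. The histone genes exist as near-identical pairs, so these values depend on how reads of the copies were placed. Among 13 histone chaperone genes and 13 genes of silencing and of the other sirtuins, 0 passed by limma in either direction, with medians of 0.44 and 0.43. The silencing deacetylase gene SIR2 had 0.302 and 0.619 in the hst3 hst4 libraries against 0.244 and 0.364 in the rtt109 libraries. HST1, another Sir2 relative, had 2.58 and 2.498 in the hst3 hst4 libraries against 1.57 and 2.08 in the rtt109 libraries, with a log2 fold change of 0.48 that lay close to the median gene.

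Genes of the G1 to S transition were among the higher lists. Of 16 tested members 1 passed, and 15 lay above the median gene, with a median log2 fold change of 0.89 against 0.41 over all genes. YOX1 (YML027W, chromosome 13, 221451 to 222650), a homeodomain repressor of late mitotic genes that is itself transcribed at the end of G1, had 1.41 and 1.44 in the hst3 hst4 libraries, 0.293 and 0.500 in the rtt109 libraries and 0.582 and 1.36 in wild type. Its log2 fold change was 1.74 ± 0.39 (SE), with a limma adjusted p of 0.0105. The hst3 hst4 libraries were alike, and wild-type replicate 2 lay just below them. Against wild type the log2 fold change of the hst3 hst4 deletion was 0.64 and did not pass (limma adjusted p = 0.876). RNR1, the large subunit of ribonucleotide reductase, had 4.24 and 5.02 in the hst3 hst4 libraries against 1.54 and 2.34 in the rtt109 libraries, and did not pass (1.25, limma adjusted p = 0.0839). The S-phase cyclin gene CLB5 (1.22) and the G1 genes NRM1 (1.18) and TOS4 (1.13) did not pass either. CLN3, the cyclin that starts the transition, had 1.83 and 2.00 in the hst3 hst4 libraries against 1.56 and 2.26 in the rtt109 libraries, and the groups overlapped.

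Of 32 DNA replication genes, CDC6 alone passed, and their median was 0.55. CDC6 (YJL194W, chromosome 10, 69351 to 70950), which loads the replicative helicase at origins, had 0.891 and 0.775 in the hst3 hst4 libraries, 0.267 and 0.249 in the rtt109 libraries and 0.349 and 0.730 in wild type (1.49 ± 0.38, SE; limma adjusted p = 0.0274). The single-strand binding subunit RFA1 had a log2 fold change of 1.06 and the sliding clamp POL30 one of 0.94, neither past the threshold, while the helicase subunits MCM2 to MCM7 lay between -0.13 and 0.51. Of these POL30, MCM2 and MCM7 lie on chromosome 2, and without replicate 2 of the rtt109 deletion they had 1.32, 0.44 and 0.52. Late mitotic and early G1 genes (14 tested) had a median of 0.62 and G2 to M genes (14 tested) one of 0.26, with 0 of either past the threshold by limma. CLB2, the main mitotic cyclin, had 1.93 and 1.32 in the hst3 hst4 libraries against 0.841 and 1.19 in the rtt109 libraries.

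The promoters of YOX1 and CDC6 hold the core that the G1 factor MBF recognises, ACGCGT. This core occurs in either orientation in 5.62% of all windows of 500 bases before a coding start. The 2 sites are shown because YOX1 and CDC6 were the called members of the G1 to S and DNA replication lists. Other called genes with a part in the cell cycle are named elsewhere, and of these CIP1, a called fall, also has the core. The sequences run 5′ to 3′ on the strand of the gene, from the RefSeq S288C reference (build R64), with the motif in capitals.
YOX1, chr13:220900-220923, plus strand: ggctctaaaACGCGTaaaccattc
CDC6, chr10:69125-69148, plus strand: cgaggcctcACGCGTcggagtttc
The same core stood before 4 of the 41 called rises and 3 of the 31 called falls.

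HUG1 was the called member of the 13 tested genes that DNA damage induces, whose median was 0.65. HUG1 (YML058W-A, chromosome 13, 158801 to 159050), a small inhibitor of ribonucleotide reductase made on activation of the checkpoint, had 3.35 and 1.91 in the hst3 hst4 libraries, 0.799 and 0.546 in the rtt109 libraries and 0.262 and 0.318 in wild type. Its log2 fold change was 1.85 ± 0.38 (SE; limma adjusted p = 0.00451), on 3 usable bins. The rtt109 libraries thus lay between the hst3 hst4 deletion and wild type. In the same fit HUG1 was higher in the hst3 hst4 deletion than in wild type (2.90, limma adjusted p = 1.80e-06), and in the rtt109 deletion its difference from wild type of 1.05 did not pass (limma adjusted p = 0.125). RNR2 and RNR4, small subunits of ribonucleotide reductase, had log2 fold changes of 0.46 and 0.75, and the checkpoint kinase gene DUN1 had 0.81. The checkpoint list (14 tested) and the recombination list (12 tested) had medians of 0.50 and 0.39 and 0 members past the threshold by limma; RAD53, the effector kinase, had 0.640 and 0.620 in the hst3 hst4 libraries against 0.261 and 0.293 in the rtt109 libraries (1.04, limma adjusted p = 0.182).

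Among rises whose groups did not overlap, the largest outside the deleted genes were in SSB1 and its neighbour HO. SSB1 (YDL229W, chromosome 4, 44101 to 46000), an Hsp70 that sits on ribosomes and folds nascent chains, had 25.6 and 34.8 in the hst3 hst4 libraries, 3.86 and 5.77 in the rtt109 libraries and 6.61 and 8.10 in wild type. The hst3 hst4 libraries were far above all others, with a log2 fold change of 2.65 ± 0.37 (SE; limma adjusted p = 1.85e-05) against the rtt109 deletion and 2.02 (limma adjusted p = 0.000472) against wild type. SSB1 has a near-identical copy, SSB2, so its value depends on how reads were divided, and it rests on 20 usable bins. SSB2 had 19.7 and 24.998 in the hst3 hst4 libraries against 12.9 and 23.6 in the rtt109 libraries, with 25.8 and 23.8 in wild type, and did not pass (0.35). The other 18 tested chaperone genes did not pass, and the list had a median of 0.62.

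HO (YDL227C, chromosome 4, 46301 to 48100), the endonuclease that starts mating-type switching, lies downstream of SSB1 with the genes ending towards each other. It had 2.02 and 2.30 in the hst3 hst4 libraries, 0.374 and 0.353 in the rtt109 libraries and 2.13 and 4.83 in wild type (2.39 ± 0.38, SE; limma adjusted p = 0.000211). Here the rtt109 libraries were the low ones, and the hst3 hst4 libraries lay within or just under the wild-type range. Of the genes on either side, PTP1 (0.08) and GCS1 (0.61) did not pass.

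Genes of haploid identity and pheromone response were also among the higher lists, with a median of 0.86 over 16 tested members. Of these 2 were called higher, against 0.787% of all tested genes. FAR1 (YJL157C, chromosome 10, 123851 to 126400), which arrests the cycle on pheromone, had 1.44 and 1.60 in the hst3 hst4 libraries, 0.462 and 0.591 in the rtt109 libraries and 1.37 and 1.79 in wild type (1.44, limma adjusted p = 0.0274). HO was the other. FUS1, a fusion gene switched on by pheromone, had 0.386 and 0.706 in the hst3 hst4 libraries against 0.189 and 0.178 in the rtt109 libraries and did not pass (1.27, limma adjusted p = 0.0865). MDG1, a membrane protein of pheromone signalling, rose by 1.48 and RCE1, the protease that trims prenylated a-factor and Ras, by 1.59 on the log2 scale; both are named after their values were seen.

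Of the 7 tested a-specific genes 2 were called higher, against 0.787% of all tested genes, and the median of the 7 was 1.03. ASG7 had 0.475 and 0.645 in the hst3 hst4 libraries, 0.170 and 0.150 in the rtt109 libraries and 0.298 and 0.297 in wild type (1.49, limma adjusted p = 0.0204). MFA2, an a-factor gene measured on 1 usable bin, had 101 and 52.7 in the hst3 hst4 libraries, 23.2 and 29.7 in the rtt109 libraries and 60.5 and 59.97 in wild type (1.47, limma adjusted p = 0.0290). STE2, given above, did not pass (1.22, limma adjusted p = 0.108). The alpha-specific agglutinin gene SAG1 had 0.461 and 0.608 in the hst3 hst4 libraries against 0.422 and 0.610 in the rtt109 libraries. ASG7 and MFA2 were thus higher in the strain labelled MATalpha. The part of the labelled mating type in this result was not tested.

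**Figure D3:**
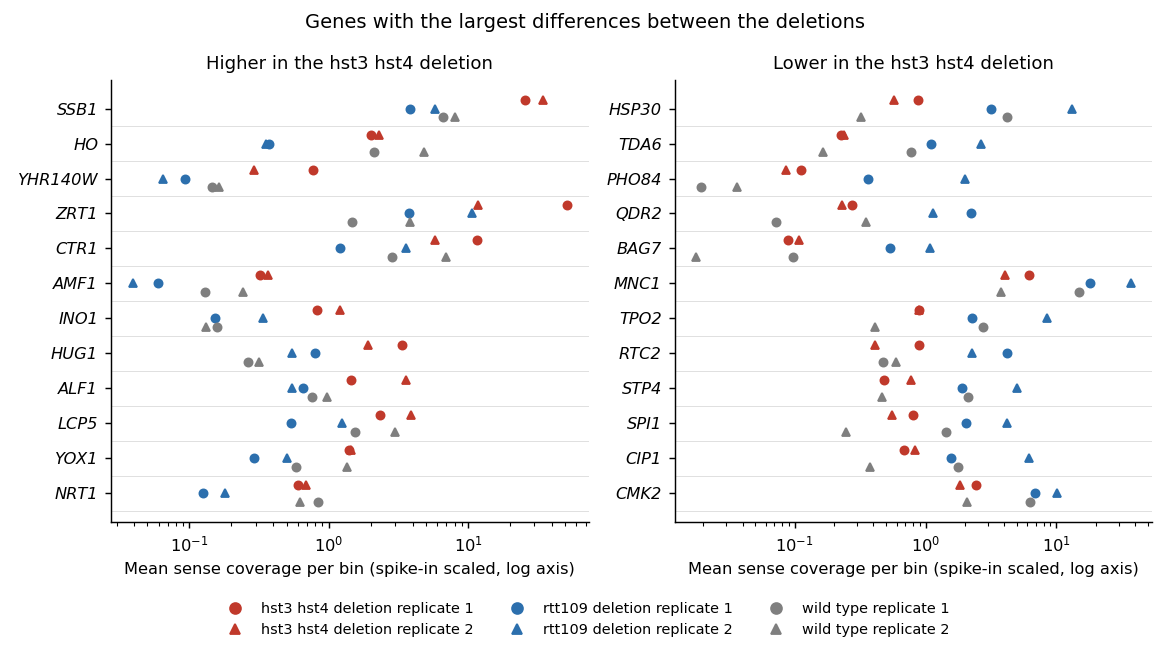
Mean sense coverage per bin (spike-in scaled, log axis) of the 12 largest called rises (left) and the 12 largest called falls (right) whose groups did not overlap, apart from the deleted genes, in each of the 6 libraries. In each gene both hst3 hst4 libraries (red) lie on one side of both rtt109 libraries (blue), and the wild-type libraries (grey) fall near one deletion, near the other or on both sides.

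The largest rises included transporters of zinc and copper, and the zinc genes rested on a single library. ZRT1 (YGL255W, chromosome 7, 21001 to 22200), the high-affinity zinc transporter, had 51.4 and 11.8 in the hst3 hst4 libraries, 3.77 and 10.6 in the rtt109 libraries and 1.46 and 3.81 in wild type. Replicate 1 of the hst3 hst4 deletion was far above the rest, while replicate 2 barely exceeded an rtt109 library. The log2 fold change of 1.95 ± 0.48 (SE; limma adjusted p = 0.0240) was 0.89 without replicate 1 of the hst3 hst4 deletion and 1.21 without replicate 1 of the rtt109 deletion. ZPS1, a surface protein made when zinc is short, had 36.5 and 0.952 in the hst3 hst4 libraries, 1.00 and 0.660 in the rtt109 libraries and 0.302 and 1.14 in wild type. The groups overlapped, and its log2 fold change of 2.80 was 0.21 without replicate 1 of the hst3 hst4 deletion. Of 12 tested zinc genes these 2 passed, against 0.787% of all tested genes called higher, and the median of the list was 0.81.

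The zinc regulator Zap1 binds the palindrome searched here as ACCTT and AAGGT with 1 base between them, which stands in the 500 bases before 9 of the 5211 tested genes (0.173%). ZRT1 is one of them and is shown because it is the called gene with this motif; the capitals mark the motif.
ZRT1, chr7:20765-20793, plus strand: acatatttgACCTTGAAGGTcatggaaag
Over the 9 genes the median log2 fold change was 0.44, and ZRT1 was the only one past the threshold. ZRG17, an endoplasmic reticulum zinc transporter gene in this set, had 0.888 and 0.815 in the hst3 hst4 libraries against 0.639 and 0.716 in the rtt109 libraries (0.31). ZAP1 itself had 0.719 and 0.433 in the hst3 hst4 libraries against 0.201 and 0.323 in the rtt109 libraries, with a log2 fold change of 0.97 that did not pass.

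CTR1 (YPR124W, chromosome 16, 786251 to 787500), the high-affinity copper transporter, had 11.6 and 5.76 in the hst3 hst4 libraries, 1.20 and 3.58 in the rtt109 libraries and 2.83 and 6.94 in wild type. Its log2 fold change of 1.95 ± 0.44 (SE; limma adjusted p = 0.0105) was 1.18 without replicate 1 of the rtt109 deletion. Upstream of it lie 2 copies of the core TTTGCTC of the copper regulator Mac1, one in each orientation, and this core is found before 8.81% of all tested genes, before 4.88% of called rises and before 9.68% of called falls. They are printed with the core in capitals because CTR1 is the textbook target of this factor.
CTR1, chr16:785865-785889, plus strand: catgggataTTTGCTCaagacgacg
CTR1, chr16:785888-785912, plus strand: cggtaaaatGAGCAAAaatggcacg
Of 20 tested iron genes 0 passed by limma, and their median was 0.10, below the median gene. The siderophore transporter gene SIT1 had 0.719 and 1.06 in the hst3 hst4 libraries against 1.98 and 1.58 in the rtt109 libraries (-0.97), and FRE1, a reductase for both iron and copper, had 6.63 and 2.41 in the hst3 hst4 libraries against 1.33 and 2.71 in the rtt109 libraries (1.05); neither passed.

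INO1, which makes inositol phosphate for membrane lipids, was the called member of 30 sterol and lipid genes, whose median was 0.53. INO1 (YJL153C, chromosome 10, 134351 to 136000) had 0.830 and 1.21 in the hst3 hst4 libraries, 0.152 and 0.335 in the rtt109 libraries and 0.158 and 0.131 in wild type (1.88 ± 0.38, SE; limma adjusted p = 0.00408). It carries 2 copies of the core CATGTG that Ino2 and Ino4 bind, a core found before 12.8% of tested genes and before 19.5% of called rises and 19.4% of called falls. AMF1, an ammonium transporter gene at low coverage, had 0.323 and 0.365 in the hst3 hst4 libraries, 0.0593 and 0.0390 in the rtt109 libraries and 0.1296 and 0.242 in wild type (1.91, limma adjusted p = 0.00275). The rtt109 values lie near the 0.0587 that was added before taking logarithms, so this change is understated.

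Genes of NAD supply had 2 called members of 13 tested, both higher, against 0.787% of all tested genes called higher. NRT1 (YOR071C, chromosome 15, 459501 to 461350), the nicotinamide riboside transporter, had 0.602 and 0.681 in the hst3 hst4 libraries, 0.125 and 0.180 in the rtt109 libraries and 0.839 and 0.625 in wild type (1.74 ± 0.37, SE; limma adjusted p = 0.00579). The rtt109 libraries were the low ones. BNA2, which opens the pathway that makes NAD from tryptophan, had 0.630 and 0.880 in the hst3 hst4 libraries, 0.214 and 0.219 in the rtt109 libraries and 0.124 and 0.0879 in wild type (1.55, limma adjusted p = 0.0158). There the hst3 hst4 libraries were the high ones. Further steps of the same pathway, BNA4 on chromosome 2 (1.27, and 1.33 without replicate 2 of the rtt109 deletion) and BNA7 (1.05), and the nicotinic acid transporter TNA1 (1.19) did not pass, and the salvage genes NPT1 (0.26) and PNC1 (0.33) lay below the median gene.

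The other large rises were of varied function. YHR140W, an uncharacterised gene, had 0.773 and 0.291 in the hst3 hst4 libraries, 0.0937 and 0.0648 in the rtt109 libraries and 0.145 and 0.164 in wild type (1.98). ALF1, which folds alpha-tubulin, had 1.44 and 3.56 in the hst3 hst4 libraries against 0.651 and 0.542 in the rtt109 libraries, and its log2 fold change of 1.83 was 1.20 once replicate 2 of the hst3 hst4 deletion was left out. LCP5, of the small ribosomal subunit processome, had 2.32 and 3.89 in the hst3 hst4 libraries, 0.538 and 1.24 in the rtt109 libraries and 1.55 and 3.00 in wild type (1.80). ALD6, which makes acetate in the cytosol, had 17.2 and 18.4 in the hst3 hst4 libraries, 7.87 and 4.28 in the rtt109 libraries and 18.3 and 17.1 in wild type (1.61), so that the rtt109 libraries alone were low. HPF1, a cell wall mannoprotein gene beside ZPS1, had 2.49 and 2.35 in the hst3 hst4 libraries, 0.825 and 0.905 in the rtt109 libraries and 0.529 and 0.612 in wild type (1.42), so that the hst3 hst4 libraries alone were high. By limma, adjusted p ran between 0.00290 for YHR140W and 0.0274 for HPF1 among these 5 genes.

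BUB3 and MPO1 were called rises that lay beside other called genes, as did SSB1 with HO and HPF1 with ZPS1. BUB3, a spindle checkpoint gene, starts downstream of the deleted HST3 on the same strand. It had 2.71 and 2.43 in the hst3 hst4 libraries, 0.852 and 1.05 in the rtt109 libraries and 1.29 and 2.52 in wild type (1.39, limma adjusted p = 0.0487). MPO1 (YGL010W, chromosome 7, 475551 to 476150) ends towards LEU1, which lies on the other strand and was lower. MPO1 had 1.99 and 1.36 in the hst3 hst4 libraries, 0.434 and 0.516 in the rtt109 libraries and 0.651 and 0.814 in wild type (1.68, limma adjusted p = 0.00904). The neighbours of RTT109 and HST4 did not pass. YIL014C-A, next to BAR1, which is deleted in all 3 strains, was a called rise (1.46, limma adjusted p = 0.0382).

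LEU1 and LEU2, genes of leucine synthesis, were lower in the hst3 hst4 deletion and also passed with each library centred. The isopropylmalate synthase gene LEU9 (0.19) and ILV5 (-0.16), which serves all branched-chain amino acids, did not pass. LEU1 (YGL009C, chromosome 7, 476351 to 478750), isopropylmalate isomerase, had 20.3 and 15.0 in the hst3 hst4 libraries, 61.8 and 63.1 in the rtt109 libraries and 17.8 and 37.3 in wild type. Its log2 fold change was -1.84 ± 0.38 (SE; limma adjusted p = 0.00577), or -2.24 relative to the median gene. LEU2 (YCL018W, chromosome 3, 91351 to 92500), isopropylmalate dehydrogenase, had 6.11 and 4.88 in the hst3 hst4 libraries, 15.8 and 18.3 in the rtt109 libraries and 8.67 and 10.4 in wild type (-1.63 ± 0.36, SE; limma adjusted p = 0.0105). In both genes the libraries of each deletion lay close together, and wild type lay between the deletions or near the hst3 hst4 deletion. All 3 strains carry the same leu2 allele by label. OAC1, a mitochondrial carrier that also moves isopropylmalate, had 23.1 and 11.5 in the hst3 hst4 libraries, 54.6 and 39.3 in the rtt109 libraries and 17.3 and 36.8 in wild type (-1.50, limma adjusted p = 0.0411).

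The factor Leu3, which isopropylmalate switches on, binds the palindrome searched here as CCGG and CCGG with 2 bases between them. It stands in the 500 bases before 16 of the 5211 tested genes (0.307%), among them 2 of the 31 called falls and 0 of the 41 called rises. The motif was looked up after the calls were known, so this is a description. The sites are shown because the genes with the lowest log2 fold changes in this set are those of branched-chain amino acids; the capitals mark the motif and each sequence runs 5′ to 3′ on the strand of its gene in the RefSeq R64 build.
LEU1, chr7:478851-478878, minus strand: acgaaaattCCGGGACCGGcgaaatttg
LEU2, chr3:91117-91144, plus strand: gtgagagcgCCGGAACCGGcttttcata
BAT1, chr8:517376-517403, plus strand: ttgtgtttgCCGGTACCGGcctttaagc
ILV2, chr13:483607-483634, plus strand: cggagcctgCCGGTACCGGcttggcttc
BAT1, the mitochondrial branched-chain aminotransferase, had 24.1 and 24.4 in the hst3 hst4 libraries, 50.7 and 65.0 in the rtt109 libraries and 23.5 and 36.3 in wild type (-1.24, limma adjusted p = 0.0918), and passed with each library centred. ILV2, acetolactate synthase, had 9.10 and 12.2 in the hst3 hst4 libraries against 24.6 and 21.2 in the rtt109 libraries (-1.11, limma adjusted p = 0.140). BAP2, the branched-chain amino acid permease on chromosome 2, had 6.09 and 6.87 in the hst3 hst4 libraries against 11.2 and 19.3 in the rtt109 libraries (-1.18, limma adjusted p = 0.114), or -0.79 once replicate 2 of the rtt109 deletion was left out. The other 11 genes lay between -0.30 and 0.69, and the median of all 16 was -0.22 against 0.41 over all genes, with 13 below the median gene.

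**Figure D4:**
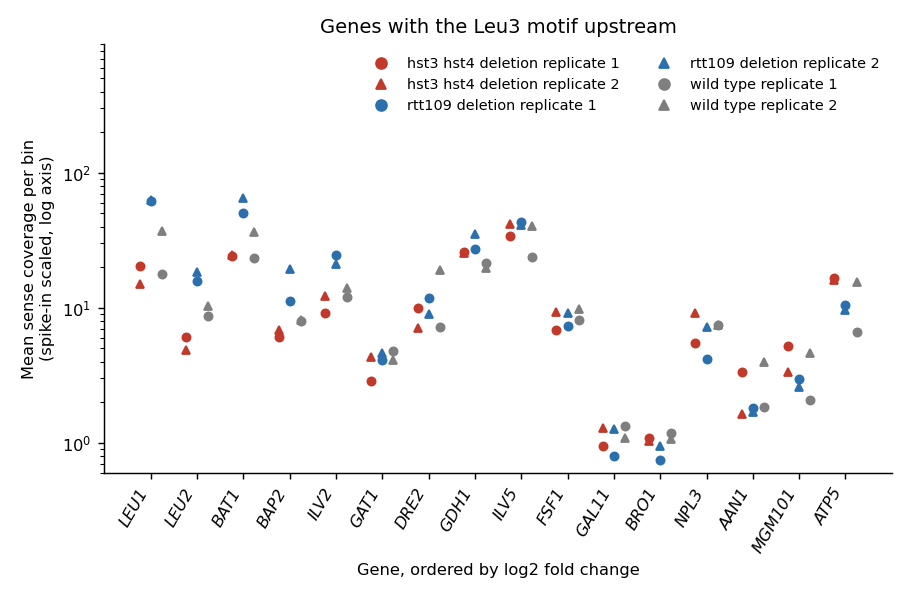
Mean sense coverage per bin (spike-in scaled, log axis) of the 16 genes with the Leu3 palindrome in the 500 bases before the coding start, ordered by log2 fold change, in each library. The first 5, LEU1, LEU2, BAT1, BAP2 and ILV2, have both hst3 hst4 libraries (red) below both rtt109 libraries (blue), and at the right end the order of the groups turns round.

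In the amino acid synthesis list, which does not hold LEU2, LEU1 was the 1 called gene of 46 tested, and 45 of 46 lay below the median gene. The median log2 fold change of the list was -0.27, or -0.67 relative to all genes, and the pairings of libraries gave medians between -0.52 and 0.02. HIS4, a histidine gene, had 4.52 and 5.96 in the hst3 hst4 libraries, 11.4 and 13.2 in the rtt109 libraries and 6.11 and 5.34 in wild type (-1.23, limma adjusted p = 0.0900). LYS1, the last step of lysine synthesis, had 2.32 and 3.81 in the hst3 hst4 libraries against 7.63 and 6.57 in the rtt109 libraries (-1.24), and ARG1, of arginine synthesis, had 13.9 and 23.2 in the hst3 hst4 libraries against 37.1 and 39.6 in the rtt109 libraries (-1.09); neither passed. In these genes both hst3 hst4 libraries lay below both rtt109 libraries, as in 4.41% of all tested genes. Wild type was close to the hst3 hst4 deletion there. The core TGACTC, which the general amino acid regulator Gcn4 binds, stood before 8 of the 31 called falls (25.8%) and 2 of the 41 called rises (4.88%), against 13.0% of all tested genes. Further motifs were searched in the same windows. The Msn2 core AGGGG stood before 31.7% of called rises, 38.7% of called falls and 34.1% of all tested genes, and the Ste12 core TGAAACA before 12.2% of called rises, 0 called falls and 11.7% of all. The Sum1 element, CACAAAA after a G and any base, stood before 0 called genes and 2.28% of all.

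Sulfur and methionine genes had a median of -0.18 over 22 tested members, 21 of them below the median gene and 0 past the threshold by limma. MET17, which fixes sulfide, had 4.90 and 4.59 in the hst3 hst4 libraries, 13.4 and 6.09 in the rtt109 libraries and 4.77 and 4.45 in wild type (-0.92). Replicate 1 of the rtt109 deletion was the high library in MET17 and also in MET16, with 2.15 and 1.28 in the hst3 hst4 libraries against 4.49 and 1.60 in the rtt109 libraries, where the groups overlapped. Adenine and one-carbon genes had 0 of 18 past the threshold by limma and a median of 0.05. ADE12, the first step from inosine to adenosine phosphate, had 3.63 and 3.31 in the hst3 hst4 libraries, 7.90 and 7.94 in the rtt109 libraries and 2.49 and 3.46 in wild type (-1.18, limma adjusted p = 0.109). The restored ADE2 is labelled in the hst3 hst4 strain and in wild type and not in the rtt109 strain, so that allele and the rtt109 deletion cannot be told apart here. Of 22 nitrogen genes MEP2 alone passed, and the median was 0.03. MEP2, the high-affinity ammonium permease, had 1.90 and 1.28 in the hst3 hst4 libraries, 3.60 and 5.37 in the rtt109 libraries and 4.31 and 4.42 in wild type (-1.46, limma adjusted p = 0.0274), so the hst3 hst4 libraries were the low ones.

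Among general stress genes 3 of 24 were called, all lower, against 0.595% of all tested genes called lower. The median of the list was -0.16 with pairings between -0.73 and 0.58. HSP30 (YCR021C, chromosome 3, 156151 to 157200), a heat shock protein that restrains the plasma membrane proton pump, had 0.869 and 0.574 in the hst3 hst4 libraries, 3.17 and 13.1 in the rtt109 libraries and 4.17 and 0.319 in wild type. Its log2 fold change of -3.09 ± 0.58 (SE; limma adjusted p = 0.00167) was -2.07 without replicate 2 of the rtt109 deletion, and of the wild-type libraries one lay within the rtt109 range and the other below both hst3 hst4 libraries. SPI1, a cell wall protein gene induced on growth arrest, had 0.800 and 0.555 in the hst3 hst4 libraries, 2.04 and 4.18 in the rtt109 libraries and 1.43 and 0.248 in wild type (-2.04, limma adjusted p = 0.0105). GRE1, a hydrophilin gene, had 0.738 and 0.804 in the hst3 hst4 libraries, 3.43 and 2.56 in the rtt109 libraries and 0.0614 and 0.0826 in wild type (-1.87, limma adjusted p = 0.00286). Against wild type GRE1 was higher in the hst3 hst4 deletion (2.67, limma adjusted p = 4.39e-06) and in the rtt109 deletion (4.54, limma adjusted p = 4.77e-12). HSP12, a membrane-protecting stress protein, had 52.5 and 18.3 in the hst3 hst4 libraries, 83.4 and 54.2 in the rtt109 libraries and 0.560 and 3.59 in wild type, and did not pass between the deletions (-1.11, limma adjusted p = 0.289).

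PHO84 (YML123C, chromosome 13, 24051 to 25850), the high-affinity phosphate transporter, had 0.112 and 0.0862 in the hst3 hst4 libraries, 0.364 and 2.01 in the rtt109 libraries and 0.0192 and 0.0361 in wild type. The 2 rtt109 libraries differed several-fold from each other and both lay above all others. The log2 fold change of -2.57 ± 0.44 (SE; limma adjusted p = 0.000538) was -1.42 once replicate 2 of the rtt109 deletion was left out, and -3.72 once its replicate 1 was. PHM8, a phosphatase of nucleotides made when phosphate is short, had 1.66 and 0.591 in the hst3 hst4 libraries, 2.41 and 4.21 in the rtt109 libraries and 0.356 and 0.0829 in wild type (-1.62, limma adjusted p = 0.0475), with -0.92 once replicate 2 of the hst3 hst4 deletion was left out. These were the called members among 14 tested phosphate genes, whose median of 0.43 lay close to that of all genes. Over all tested genes 0.595% were called lower. The regulator PHO4 (0.81) and the cyclin PHO80 (0.95) that restrains it had positive log2 fold changes that did not pass. PHO84 carries 2 copies of the Pho4 core CACGTG, which stands before 6.29% of tested genes, 4.88% of called rises and 6.45% of called falls, and they are printed with the core in capitals because PHO84 had the largest fall of the list.
PHO84, chr13:26200-26223, minus strand: tatttccagCACGTGgggcggaaa
PHO84, chr13:26222-26245, minus strand: taatagttcCACGTGgacgtgtta

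The remaining large falls were of varied function. TDA6, whose role is not known, had 0.224 and 0.239 in the hst3 hst4 libraries, 1.10 and 2.66 in the rtt109 libraries and 0.769 and 0.163 in wild type (-2.61). QDR2, a multidrug and cation exporter, had 0.275 and 0.232 in the hst3 hst4 libraries, 2.24 and 1.14 in the rtt109 libraries and 0.0718 and 0.353 in wild type (-2.41). BAG7, a GTPase-activating protein gene, had 0.0888 and 0.107 in the hst3 hst4 libraries, 0.536 and 1.08 in the rtt109 libraries and 0.0964 and 0.0177 in wild type (-2.40). In QDR2 and BAG7 the rtt109 libraries alone were high. TPO2, a polyamine exporter, had 0.887 and 0.888 in the hst3 hst4 libraries against 2.27 and 8.52 in the rtt109 libraries (-2.24, and -1.30 without replicate 2 of the rtt109 deletion). STP4, a zinc finger gene, had 0.479 and 0.776 in the hst3 hst4 libraries against 1.89 and 4.96 in the rtt109 libraries (-2.22). CIP1, an inhibitor of the cyclin-dependent kinase, had 0.687 and 0.834 in the hst3 hst4 libraries against 1.58 and 6.13 in the rtt109 libraries (-1.96, and -1.003 without replicate 2 of the rtt109 deletion). CMK2, a calmodulin-dependent kinase gene, had 2.44 and 1.82 in the hst3 hst4 libraries against 6.87 and 10.0 in the rtt109 libraries (-1.95). In TDA6, TPO2, STP4, CIP1 and CMK2 the wild-type replicates fell one near each deletion. The spread of these genes between libraries was larger than the value shared by all genes, towards which their p-values are weighted. YPS3, a cell surface protease and the called member of 24 cell wall genes, had 1.44 and 2.20 in the hst3 hst4 libraries, 4.65 and 9.03 in the rtt109 libraries and 1.25 and 0.875 in wild type (-1.83). Among these 8 genes adjusted p by limma ran between 0.000268 for BAG7 and 0.0204 for CIP1.

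Chromosome 2 held 6 of the 31 called falls (19.4%) and 7.02% of the tested genes. They were MNC1, RTC2, VID24, RIB5, ECM13 and ADH5, and replicate 2 of the rtt109 deletion, in which this chromosome stood high, entered each of them. RTC2, a vacuolar exporter of cationic amino acids, had 0.891 and 0.411 in the hst3 hst4 libraries, 4.16 and 2.28 in the rtt109 libraries and 0.473 and 0.599 in wild type (-2.23, and -2.66 without that library). VID24, which targets gluconeogenic enzymes for degradation, had 0.726 and 1.03 in the hst3 hst4 libraries, 2.30 and 4.34 in the rtt109 libraries and 0.622 and 0.859 in wild type (-1.80, and -1.35 without that library). MNC1 was at -2.36 with that library and -1.84 without it, ADH5 at -1.48 with it and -1.82 without it, RIB5 at -1.64 with it and -1.47 without it, and ECM13 at -1.50 with it and -0.86 without it. RIB5 was at -1.07 without replicate 2 of the hst3 hst4 deletion. All 6 thus had the same sign without the library, but so did all 72 called genes, so the sign shows nothing particular to these 6. With each chromosome of each library centred, an alternative chosen after seeing the data, VID24 alone of the 6 passed. Over all 366 genes of the chromosome the median was -0.24 relative to all genes, with -0.05 and -0.02 against replicate 1 of the rtt109 deletion and -0.47 and -0.49 against replicate 2.

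The other called falls were 2 genes known by their locus names and 4 of metabolism. YLR297W had 2.47 and 0.910 in the hst3 hst4 libraries, 3.87 and 8.93 in the rtt109 libraries and 3.60 and 1.36 in wild type (-1.93, limma adjusted p = 0.0119), with -1.23 once replicate 2 of the hst3 hst4 deletion was left out. YOR385W had 1.86 and 1.51 in the hst3 hst4 libraries, 5.58 and 7.13 in the rtt109 libraries and 6.69 and 1.97 in wild type (-1.88, limma adjusted p = 0.00930). The wild-type libraries of both genes lay one near each deletion. TMT1, a methyltransferase of trans-aconitate and isopropylmalate, had 1.16 and 1.37 in the hst3 hst4 libraries, 5.62 and 2.67 in the rtt109 libraries and 1.55 and 1.75 in wild type (-1.58, or -1.05 without replicate 1 of the rtt109 deletion). SNO1, of vitamin B6 synthesis, had 0.802 and 0.951 in the hst3 hst4 libraries, 4.13 and 1.62 in the rtt109 libraries and 0.0936 and 0.281 in wild type (-1.51, and -0.85 without replicate 1 of the rtt109 deletion). SRY1, a dehydratase of hydroxyaspartate, had 1.74 and 1.86 in the hst3 hst4 libraries against 7.56 and 4.29 in the rtt109 libraries (-1.63). AMD2, a putative amidase gene, had 0.503 and 0.437 in the hst3 hst4 libraries, 1.16 and 1.44 in the rtt109 libraries and 0.413 and 0.408 in wild type (-1.36). In each of these 4 metabolic genes the rtt109 libraries were the high ones. By limma, adjusted p was 0.0187 for TMT1, 0.0489 for SNO1, 0.0117 for SRY1 and 0.0431 for AMD2; these 6 genes were named after their values were seen.

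Several broad classes held 0 called genes by limma. Ribosomal protein genes had a median of 0.68 over 136 tested members, 116 of them above the median gene and 0 past the threshold by limma, and the pairings of libraries gave medians between 0.27 and 1.07. RPS9A had 16.9 and 17.5 in the hst3 hst4 libraries, 9.10 and 5.11 in the rtt109 libraries and 19.3 and 38.9 in wild type (1.33, limma adjusted p = 0.0819), and it has a near-identical copy. The 86 ribosome biogenesis genes had a median of 0.50, and by limma 0 of them passed. RRP9 had 4.298 and 4.28 in the hst3 hst4 libraries, 1.88 and 2.19 in the rtt109 libraries and 2.64 and 7.45 in wild type (1.06). Genes of the tricarboxylic acid cycle (18 tested) and of the respiratory chain (31 tested) had medians of 0.05 and 0.18, and those of hexose uptake and glycolysis (23 tested) one of 0.31. Above the median gene lay 3, 6 and 9 of their members, and by limma 0 genes of the 3 lists passed. PDC5, a pyruvate decarboxylase gene, had 0.980 and 0.925 in the hst3 hst4 libraries against 0.383 and 0.448 in the rtt109 libraries (1.10, limma adjusted p = 0.140). ADH2, which oxidises ethanol, had 0.132 and 0.174 in the hst3 hst4 libraries, 0.413 and 0.283 in the rtt109 libraries and 0.0400 and 0.0269 in wild type (-0.93, limma adjusted p = 0.233).

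**Figure D5:**
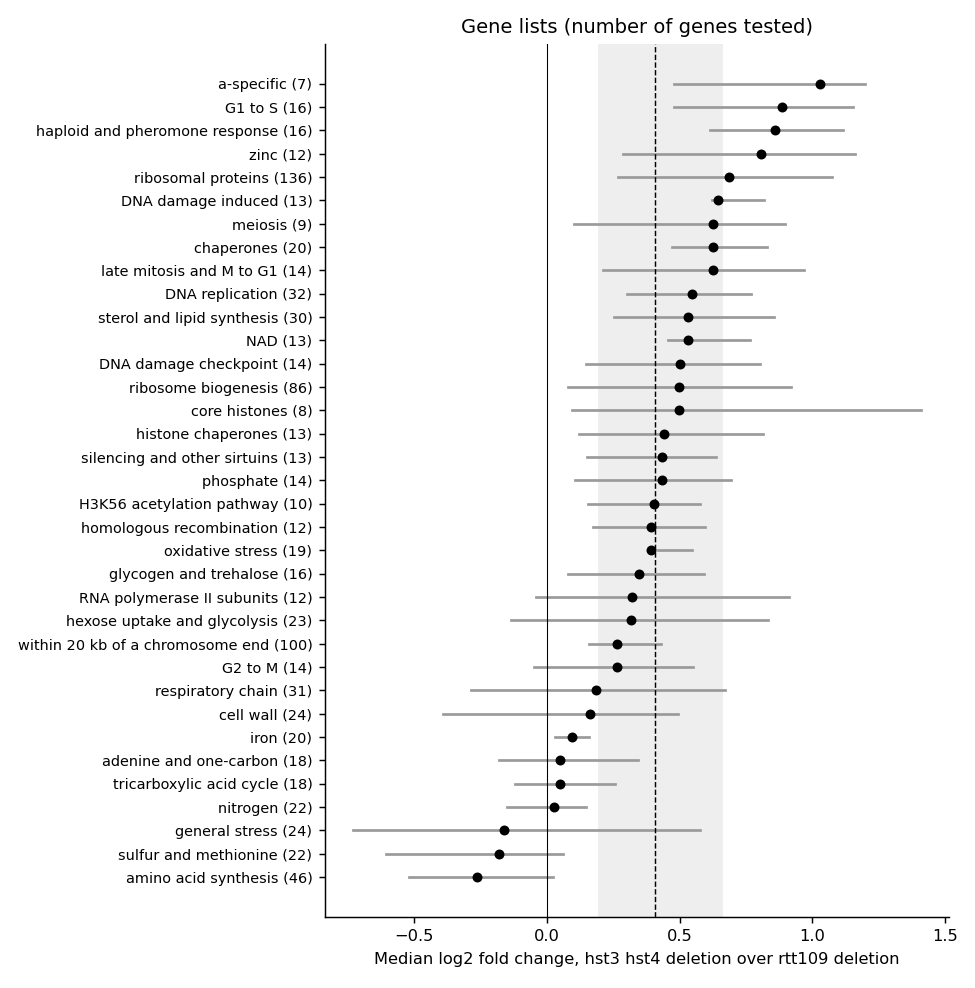
Median log2 fold change, hst3 hst4 deletion over rtt109 deletion, of each gene list with its number of tested genes (points), with bars from the lowest to the highest median over the 4 pairings of libraries. The dashed line is the median of all genes at 0.41 and the grey band its pairings between 0.19 and 0.66. The a-specific, G1 to S and haploid lists lie at the top (1.03, 0.89 and 0.86) and amino acid synthesis at the bottom (-0.27).

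The 100 tested genes within 20 kb of a chromosome end had a median of 0.26, with 3 called higher and 1 lower. Over all tested genes the shares were 0.787% and 0.595%. Relative to all genes the median near the ends was -0.14, with the pairings of libraries between -0.23 and -0.04. The higher ones were YOL160W, YEL073C and the phenylacrylic acid decarboxylase gene PAD1, which had 1.48 and 2.06 in the hst3 hst4 libraries, 0.538 and 0.562 in the rtt109 libraries and 0.890 and 1.64 in wild type (1.57, limma adjusted p = 0.0181). The deposited table carries a replication timing score taken from an earlier publication, per its header, whose unit is not stated. It was lower near origins, with a median of 38.4 in bins that hold an origin against 47.1 over all bins. The 1303 genes with the lowest scores had a median of 0.03 relative to all genes and the 1303 with the highest a median of -0.04, with the pairings between -0.01 and 0.05 and between -0.06 and -0.01. Among the genes with the lowest scores were 17 called rises and 4 called falls, and among those with the highest 6 and 12. Between them, the 1303 genes with the lower scores held 9 called rises and 7 called falls, and the 1302 with the higher scores 9 and 8. Over all 5211 tested genes there were 41 called rises (0.787%) and 31 called falls (0.595%). A link between the calls and the score was not tested.

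On the strand opposite to genes, coverage was low in every library. Antisense coverage made up 1.60% and 2.23% of coverage over coding regions in the hst3 hst4 libraries, 1.90% and 1.38% in the rtt109 libraries and 2.68% and 1.18% in wild type, so the groups overlapped in this share. The median antisense value over 5010 tested genes was 0.0352 and 0.0546 in the hst3 hst4 libraries, 0.0306 and 0.0212 in the rtt109 libraries and 0.0594 and 0.0178 in wild type, a few steps of the coverage. The median log2 fold change was 0.78, with pairings between 0.34 and 1.21 (exact permutation test over the 4 libraries, two-sided, p = 0.33, the smallest possible). By limma 0 of the 5010 genes passed (0%), and 334 had an unadjusted p under 0.05, 329 of them higher in the hst3 hst4 deletion. With each library centred 94 did, 33 of them higher.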

How the data were processed

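Poly(A) RNA was sequenced after total RNA of fission yeast had been added at a fixed mass ratio, per the labels' protocols. The deposited table holds signal (coverage) for each strand of 16 chromosomes in 50-base steps, scaled by the authors to the fission yeast spike-in, and a second set of columns normalized to 1, per the file headers. It also holds a deposited timing score. The base caller named in the submitters' processing notes is CASAVA 1.7.0. Aligner and build: not given in the sources used here. A letter fills 11670 of 240976 bins (4.84%), which were not used. Where the design foresaw RefSeq coding regions, the table's own features were used, because positions differ between builds; names and upstream sequences came from RefSeq R64.

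Of 6525 coding features 5871 matched a protein-coding gene and 5791 had a value. A value is mean sense coverage without the first and last bin, introns, and bins shared with another coding region on that strand. The 580 lowest genes (10%) were left out. limma 3.58.1 in R 4.3.3 was run on log2(value + 0.0587), the added value being percentile 5 of values above 0, with all 6 libraries in one fit (3 residual and 37.7 prior degrees of freedom), which understates the fold change of low genes. The fit was tested on simulated data. Tables were read with Python 3.11.15. Read numbers are unknown.

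The comparison, the gene lists and the motifs were chosen with earlier results of these data known. Named were genes of the genotypes, the 12 largest called rises and falls without overlap, up to 3 called members of each list or otherwise 2 members with the smallest p, and, as said beside them or for comparison within a list, others chosen after their values were seen.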

Additional observations from a re-analysis of the deposited data

How the results depend on the processing

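The called genes kept their direction under every setting run (all 72, or the 57 tested with the lowest 25% left out and the 66 tested without chromosome 2), but the number of calls did not hold. It was 14 with each library centred on its median (2 higher and 12 lower), 25 with quantile normalization (5 and 20), 26 with the columns normalized to 1 (4 and 22), 0 with an added value 10 times larger (679 genes at an unadjusted p under 0.05, by limma), 1 with no filter on low values, and 171 with a mean-variance trend (121 and 50). With each chromosome of each library centred, chosen after seeing the data, it was 16 (2 and 14). The robust form of the limma variance step gave 56 calls (36 and 20), all among the 72. With the 4 mutant libraries alone the number was 89 (53 and 36). It was 103 (65 and 38) with an added value 10 times smaller and 58 (29 and 29) with the lowest 25% left out. The causes were not tested; the prior degrees of freedom were 37.7 as reported, 3.72 with the larger added value and 2.40 with no filter. Leaving out 1 library gave between 0 and 89 calls: 70 and 72 with hst3 hst4 replicate 1 or 2 left out, of which 41 and 50 were among the 72, 2 and 0 with rtt109 replicate 1 or 2 left out, where the prior degrees of freedom were 4.42, and 89 without either wild-type library; the lone library of a group is then assumed to vary like the others. With replicate number as a block 12 genes passed, all among the 72: RTT109, HO, SSB1, LCP5 and AMF1 higher, and HST3, HST4, PHO84, RTC2, BAG7, GRE1 and VID24 lower. The numbers were not taken as pairs, since the labels do not tie them together and deviations of same-numbered libraries correlated at 0.222 (hst3 hst4 and rtt109), 0.0639 (hst3 hst4 and wild type) and -0.227 (rtt109 and wild type). Of the values of named genes under alternatives, 1794 kept their side of the threshold, 652 lost the call and 18 gained it; of list medians relative to all genes, 741 moved by less than the spread and 35 by more. The median shift was 0.04 with the columns normalized to 1.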
